A study of Mus musculus with 18 samples.

Results

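The SPARC family of secreted matrix proteins was followed through endothelial RNA of the mouse heart and liver, by the gene symbols Sparc, Sparcl1, Spock1, Spock2, Spock3, Smoc1 and Smoc2. All 7 had an entry in the heart table of 17513 genes. In the liver table of 17242 genes 6 did, and Spock1 had none. The heart set held 12 libraries of endothelial cells from wild-type (WT) adult males at homeostasis, 3 each from regions called Apex, LV, VS and OR. The liver set held 6 libraries of adult males that carried Ki67-CrexER, Cdh5-DreER and R26-RL-tdT, also at homeostasis. In these mice 1 recombinase is driven by the proliferation gene Mki67 and 1 by the endothelial gene Cdh5, and the reporter is the red protein tdTomato. Of the liver libraries, 3 held tdTomato-positive endothelial cells and 3 tdTomato-negative ones, and both groups carried the 3 alleles. The labels give no time or dose of induction and do not say whether libraries came from separate animals.

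SPARC family proteins are matricellular: they sit in the extracellular matrix and modify how cells meet it rather than building it. Members share a follistatin-like domain and an extracellular calcium-binding domain, and differ in what surrounds these. SPARC, also called osteonectin, binds collagens, and endothelial cells are a known source of it. SPARCL1, also called hevin, is its closest relative. The SPOCK proteins, or testicans, are proteoglycans, and the SMOC proteins are basement membrane proteins that carry thyroglobulin domains.

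In mm10 with the GENCODE M21 annotation, the reverse strand holds Sparc at chr11:55394500-55423183, Sparcl1 at chr5:104079111-104113733 and Spock1 at chr13:57421195-57908332. The forward strand holds Spock2 at chr10:60106219-60135198, Spock3 at chr8:62951009-63357103, Smoc1 at chr12:81026808-81186414 and Smoc2 at chr17:14279506-14404790. Sparcl1 overlaps the antisense gene Gm26703, and Smoc2 overlaps 4930474M22Rik. Whether the counting used strand is not given in the sources used here, so reads of these pairs cannot be told apart.

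Of the 7 genes, 4 had a promoter entry in RefSeq's table for GRCm38.p6. The 250 bases before the RefSeq start are shown for Spock2 and Sparc. Spock2 was higher in the LV and VS libraries of the heart than in those of Apex and OR. Sparc was the most abundant member in both tissues. The Spock2 stretch is chr10:60106007-60106256 on the forward strand, and the Sparc stretch is chr11:55420081-55420330 on the reverse strand. Capitals mark GGAA on either strand (read as TTCC on the other), the core motif of ETS factors. The RefSeq starts differ from those of GENCODE given above, so the Spock2 stretch runs into the GENCODE gene and the Sparc stretch lies within it.
Spock2: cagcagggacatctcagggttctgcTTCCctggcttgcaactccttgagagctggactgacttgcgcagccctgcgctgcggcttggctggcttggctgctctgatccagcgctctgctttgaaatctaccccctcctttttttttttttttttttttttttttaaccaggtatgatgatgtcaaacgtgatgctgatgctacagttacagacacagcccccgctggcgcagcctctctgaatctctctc
Sparc: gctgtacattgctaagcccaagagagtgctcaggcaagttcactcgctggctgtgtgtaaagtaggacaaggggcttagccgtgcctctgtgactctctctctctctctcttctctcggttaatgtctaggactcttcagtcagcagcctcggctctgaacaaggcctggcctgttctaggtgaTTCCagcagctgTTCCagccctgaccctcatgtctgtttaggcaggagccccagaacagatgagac
The Spock2 stretch held 1 such match and the Sparc stretch 2. Among 32851 promoter windows of the same length, 93.4% held at least 1, with a median of 3, so a match is common. Neither stretch held TATAAA on either strand, which 12.4% of windows did, nor GGGCGG, which 32.7% did.

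Depth was even, at 21590400 to 27720154 counts for each heart library and 23715769 to 26538590 for each liver library. The 10 endothelial markers checked were present in every library, and their summed CPM (counts scaled to library size, with TMM, edgeR's correction for composition) was 15184 to 18879 in heart libraries and 12905 to 16737 in liver libraries. The 10 macrophage markers summed to between 4.68 and 13.4 CPM in the heart. Of 9 mitochondrially encoded genes, 0 had an entry in either table. The 11 immediate early genes of dissociation varied between heart libraries of 1 region, with 15443, 32855 and 43548 CPM in Apex, 22747, 39047 and 34659 CPM in LV, 37485, 29586 and 28591 CPM in VS and 27445, 48913 and 40099 CPM in OR. Their part in the heart results was not tested. In the heart VS 1 stood apart, with 649 CPM of 10 cardiomyocyte markers against 3172 and 1884 CPM in VS 2 and VS 3. In the liver, negative 3 stood apart from negative 1 and negative 2. Its 10 Kupffer cell and macrophage markers summed to 6384 CPM, against 72.9 and 140 CPM in negative 1 and negative 2 and 1194 to 2329 CPM in positive libraries. Its immediate early genes summed to 3227 CPM, against 20657 and 15625 CPM in the other 2 negative libraries and 2698 to 3326 CPM in positive ones. Results that rest on VS 1 or negative 3 are given with and without that library.

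Sparc and Sparcl1 made up nearly all SPARC family transcripts in the heart, and Sparc alone did so in the liver. Levels of different genes are compared in TPM, which are scaled for gene length. In the heart, Sparc had a median of 2435 TPM (1979 to 3631 over 12 libraries), or 60.2% of the summed family, and ranked between 21 and 73 among all genes. Sparcl1 had a median of 1653 TPM (1272 to 2191) and 39.3% of the sum, at ranks 57 to 125. Below these came Smoc2 at 10.2 TPM (4.43 to 36.6), Spock2 at 7.85 TPM (3.45 to 10.7) and Smoc1 at 3.33 TPM (0.400 to 7.05). The order held at the medians, while the ranges of Smoc2, Spock2 and Smoc1 overlapped.

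Testican-1 and testican-3 were nearly undetected. Spock1 had 3 counts in the heart, 1 in VS 3 and 2 in OR 2, and 0 in the other 10 libraries. Spock3 had 0 counts in all 12 heart libraries, and 2 counts in the liver, both in negative 3. Neither gene passed the filter on low counts in either tissue, and 5 members passed in each. At these depths a count of 0 says only that the transcript was not detected.

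In the liver, Sparc had a median of 914 TPM (829 to 1347 over 6 libraries) and 99.6% of the family sum, at ranks 115 to 194. Sparcl1, second in the heart, had a median of 2.18 TPM (1.18 to 11.8). Smoc1 had 0.845 TPM (0.230 to 6.50), Smoc2 0.505 TPM (0.250 to 2.00) and Spock2 0.355 TPM (0.150 to 1.91). The ranges of these 4 genes overlapped. The median family sum was 4162 TPM in the heart and 916 TPM in the liver. The tables were made apart and the mice differed in genotype, so tissue, genotype and processing cannot be told apart and no test was made between them.

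**Figure D1:**
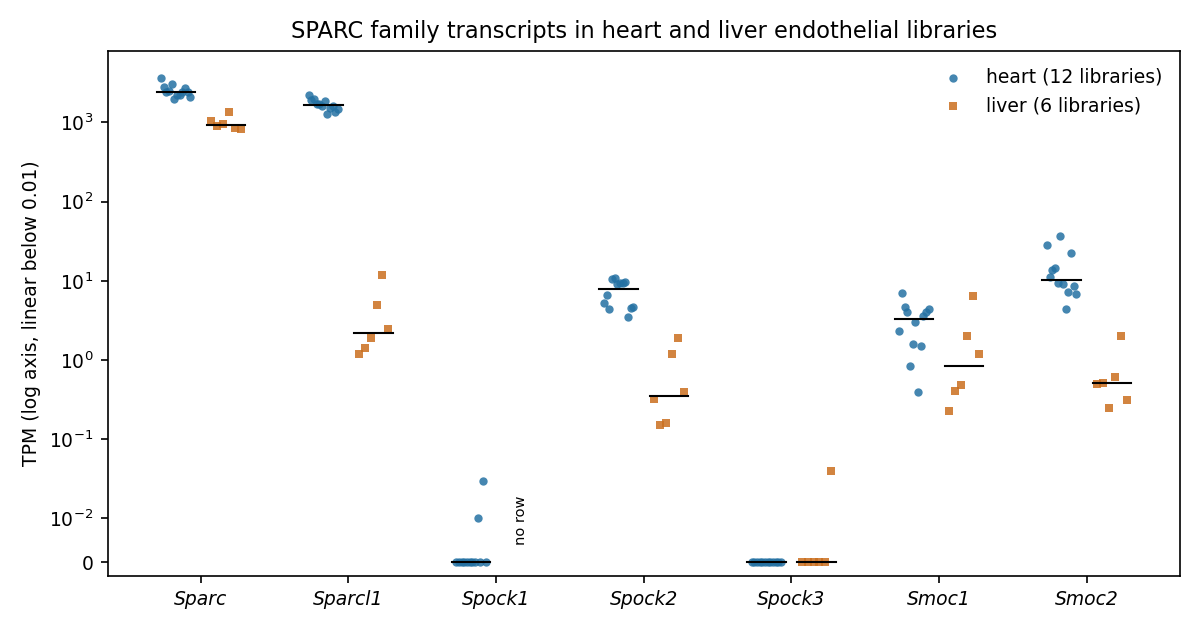
TPM of the 7 SPARC family genes on a log axis that is linear below 0.01, with a circle for each of 12 heart libraries, a square for each of 6 liver libraries and a bar at the median. Sparc is high in both tissues, while the median of Sparcl1 is 1653 TPM in the heart and 2.18 TPM in the liver.

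Across the heart regions, the LV and VS libraries lay above those of Apex and OR in Spock2. Other members separated other regions, as given below. Spock2, or testican-2, is a secreted proteoglycan. It had 12.7, 16.1 and 12.3 CPM in the Apex libraries and 25.4, 29.3 and 23.5 CPM in those of LV. VS had 19.6, 29.8 and 28.3 CPM, and OR 9.89, 13.6 and 14.5 CPM. Each of the 6 LV and VS libraries was above each of the 6 Apex and OR libraries, the closest being VS 1 at 19.6 CPM and Apex 2 at 16.1 CPM. The levels in LV and VS overlapped, and so did those in Apex and OR. Counts behind these values ran from 209 to 739 per library.

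Apex averaged 13.7 ± 2.08 CPM of Spock2, LV 26.1 ± 2.91 CPM, VS 25.9 ± 5.54 CPM and OR 12.7 ± 2.44 CPM (SD, n = 3 each). Fitted log2 fold changes were -0.93 ± 0.20 (SE) for Apex over LV and -0.92 ± 0.20 for Apex over VS. They were 1.04 ± 0.20 for LV over OR and 1.03 ± 0.20 for VS over OR. Apex over OR was 0.11 ± 0.20 and LV over VS 0.01 ± 0.20. Spock2 was chosen with its regional levels known, so these values are a description and carry no test.

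Sparc and Sparcl1, the abundant pair, differed less between regions. For Sparc, Apex averaged 3272 ± 524 CPM, LV 2828 ± 710 CPM, VS 2746 ± 645 CPM and OR 3140 ± 316 CPM (SD, n = 3 each). Its libraries ran from 2003 CPM in VS 1 to 3869 CPM in Apex 1, and all 4 regions overlapped. Its fitted differences stayed between -0.19 (VS over OR) and 0.25 (Apex over VS) on the log2 scale. Without VS 1, its lowest library, VS over OR was 0.004 and Apex over VS 0.07. LV over VS then went from 0.04 to -0.15.

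Sparcl1 was highest in Apex, with 3484, 3138 and 3485 CPM. LV libraries had 2744, 3010 and 2687 CPM, those of VS 2511, 2676 and 2840 CPM, and those of OR 3105, 2643 and 2950 CPM. Every Apex library was above every library of the other regions, by as little as 3138 against 3105 CPM. On average Apex had 3369 ± 200 CPM, LV 2814 ± 173 CPM, VS 2676 ± 165 CPM and OR 2899 ± 235 CPM (SD, n = 3 each). Apex differed by a log2 fold change of 0.26 ± 0.14 (SE) over LV, 0.33 ± 0.14 over VS and 0.22 ± 0.14 over OR. By edgeR's quasi-likelihood test none of these passed, with adjusted p of 0.930, 0.664 and 0.557. The 3 comparisons share the Apex libraries.

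Smoc1, which in frog embryos restrains bone morphogenetic protein (BMP) signalling, was on average higher in Apex and OR. Apex libraries had 4.08, 12.8 and 9.21 CPM, and LV libraries 7.19, 1.66 and 2.95 CPM. VS libraries had 4.59, 0.945 and 3.21 CPM, and OR libraries 7.76, 8.77 and 9.93 CPM. The OR libraries were all above those of LV and VS, while Apex overlapped with each region. Apex averaged 8.71 ± 4.40 CPM, LV 3.93 ± 2.89 CPM, VS 2.92 ± 1.84 CPM and OR 8.82 ± 1.09 CPM (SD, n = 3 each). Fitted differences were -1.16 ± 0.56 (SE, log2) for LV over OR and -1.59 ± 0.57 for VS over OR, with edgeR adjusted p of 0.440 and 0.658. Without LV 1 the first was -1.92, and without VS 1 the second was -2.08, still short of the threshold (edgeR adjusted p of 0.807 and 0.353). Limma's voom with sample quality weights called Smoc1 higher in Apex than in VS, at 1.89 on the log2 scale (adjusted p = 0.0426), and over the 4 regions (adjusted p = 0.0453). It called 13.8% and 21.5% of all genes in those comparisons.

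Smoc2, a matrix protein of basement membranes, had the largest coefficient of variation of the detected members over the 12 libraries, at 65.7%. Apex libraries had 40.1, 16.1 and 21.9 CPM of it, and LV libraries 20.8, 15.0 and 55.3 CPM. VS libraries had 11.0, 8.39 and 12.3 CPM, and OR libraries 39.2, 15.1 and 12.3 CPM. Apex averaged 26.0 ± 12.5 CPM, LV 30.4 ± 21.8 CPM, VS 10.5 ± 1.98 CPM and OR 22.2 ± 14.8 CPM (SD, n = 3 each). VS lay below the other regions, with no overlap, and its margin to OR was only between 12.286 and 12.320 CPM. The other 3 regions overlapped. Fitted differences were 1.30 ± 0.52 (SE, log2) for Apex over VS, 1.53 ± 0.52 for LV over VS and -1.07 ± 0.52 for VS over OR, with edgeR adjusted p of 0.664, 0.999 and 0.726. Single libraries carried much of this: without Apex 1 the first was 0.85, without LV 3 the second was 0.76, and without OR 1 the third was -0.38.

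In Apex, LV and OR, the library highest in Smoc2 was also the highest in fibroblast transcripts, while in VS it was not. The 10 fibroblast markers, all in the table and none at 0 throughout, summed to 1179, 547 and 888 CPM in the Apex libraries and 1495, 1050 and 2404 CPM in those of LV. VS had sums of 540, 868 and 781 CPM, and OR of 1940, 900 and 614 CPM. Apex 1, LV 3 and OR 1 had the highest sum of their region, and they had the highest Smoc2 too. VS went the other way, as VS 2 had its highest sum and its lowest Smoc2, at 8.39 CPM. The part of fibroblast RNA in the Smoc2 values was not tested. In bulk RNA, fewer cells of a type and less RNA per cell cannot be told apart.

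**Figure D2:**
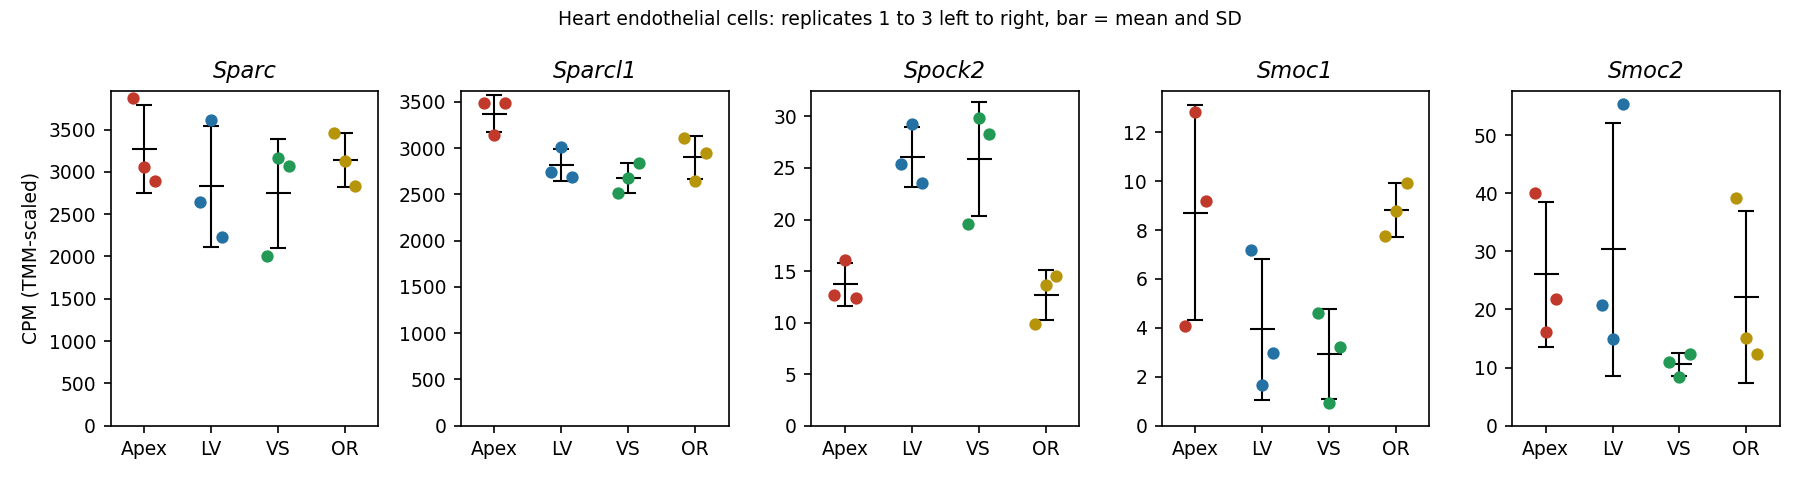
TMM-scaled CPM of the 5 detected members in each heart region, with a point per library and the mean and SD as bars; each panel has its own axis from 0. Spock2 is the member in which LV and VS lie apart from Apex and OR.

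**Figure D3:**
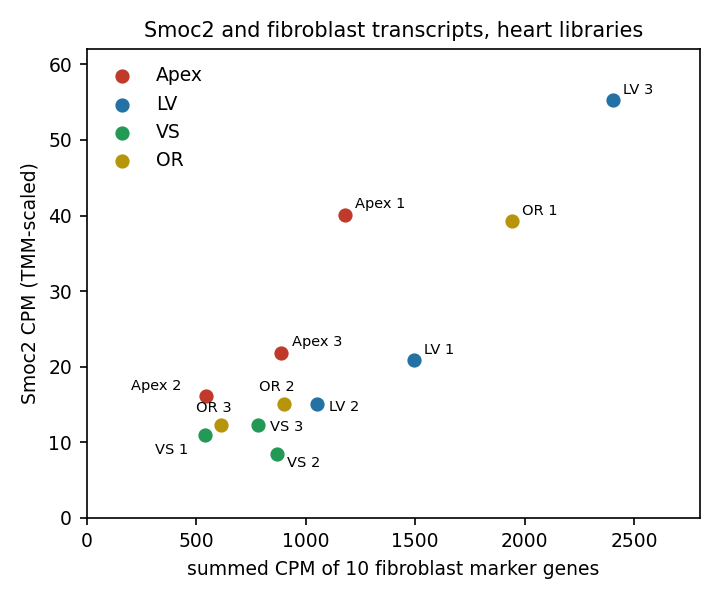
Smoc2 CPM against the summed CPM of 10 fibroblast marker genes, with a point per heart library. Apex 1, LV 3 and OR 1 are the highest of their region on both axes.

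Over all pairs of regions, edgeR's quasi-likelihood test called 0 of the 4 members tested (Spock2 apart) and 0 of 13542 genes, a background of 0% in each comparison. At an unadjusted p under 0.05, edgeR had 3 members in Apex against VS, beside 7.47% of all genes. It had 1 in LV against VS (2.91% of all genes), 1 in VS against OR (7.03%), 1 over the 4 regions (8%) and 0 in the remaining pairs. DESeq2 also called 0 of the 4 in every comparison. Its share of all genes was 0.517% over the 4 regions, 0.155% in Apex against LV, 0.105% in Apex against VS, 0.498% in Apex against OR, 0.111% in LV against VS, 0.365% in LV against OR and 0.139% in VS against OR. Voom called 0 of the 4 in the pairs other than Apex against VS, where its shares of all genes were 0.281% in Apex against LV, 13.2% in Apex against OR, 0.00738% in LV against VS, 2.81% in LV against OR and 0.0665% in VS against OR. Without VS 1, edgeR again called 0 of the 4, beside 10.8% of all genes over the 4 regions. In the pairs of Apex with LV, VS and OR that setting called 0.00727%, 11.7% and 6.25% of all genes, and 4.45% in LV against VS, 2.72% in LV against OR and 0.0581% in VS against OR. Counts of members without overlap, Spock2 included, were 2 of 5 in Apex against LV, where 16.2% of all genes were so separated, and 3 of 5 in Apex against VS (10.6%). They were 1 of 5 in Apex against OR (28.9%), 1 of 5 in LV against VS (5.62%), 2 of 5 in LV against OR (27.4%) and 3 of 5 in VS against OR (11.4%). Spock2 was in 4 of these counts, and nothing is read from it there because it was chosen on this contrast.

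Genes whose level followed each member over the 12 heart libraries were sought by Pearson's r of log2 CPM among 9846 genes. Regions share libraries here, so r is a description. Spock2 was followed most closely by Elk3, an ETS transcription factor, with r of 0.93 (Spearman's rho 0.94), and 0.90 after region means were taken out. Next were Tjap1, Csf1, Coro2b and Phldb1 (r of 0.89 to 0.91), of which Csf1 and Phldb1 came down to 0.57 and 0.52 without region means. Smoc2 went with Pcsk6 (r of 0.95), Lum (0.94), Crispld2 (0.91), Mfap5 (0.89) and Col5a1 (0.88). Lum, the collagen-binding proteoglycan lumican, is one of the fibroblast markers above. Smoc1 went with Npr3, the natriuretic peptide clearance receptor found in endocardium (r of 0.89), and with Prxl2c, Bmx and Cldnd1 (0.86 to 0.89). Without LV 2 and VS 2, r was 0.69 for Npr3, 0.70 for Prxl2c, 0.56 for Bmx and 0.64 for Cldnd1.

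The abundant members had other companions. Sparc went with Elavl1, Calcoco1, Ube2l3, Pea15a and Cap1 (r of 0.88 to 0.93), a range of 0.61 to 0.81 without LV 3 and VS 1. Sparcl1 went with Tpm4, an actin-binding tropomyosin (r of 0.94), Ankle2, Cd34, Cdk1 and Actr3 (0.84 to 0.89). Cd34 is a surface glycoprotein of capillary endothelium, and Cdk1 a cell cycle kinase. After region means were taken out, r was 0.64 for Cd34 and 0.52 for Cdk1.

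In the liver, all 5 detected members had lower means in tdTomato-positive cells, but Sparc, the dominant member, differed by little and did not separate the groups. Sparc had 1322, 1158 and 1174 CPM in positive libraries, against 1734, 1114 and 1008 CPM in negative libraries. The groups overlapped, with means of 1218 ± 90.4 and 1285 ± 393 CPM (SD, n = 3 each). The log2 fold change was -0.08 ± 0.23 (SE, edgeR adjusted p = 0.910).

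Sparcl1 had 2.22, 2.74 and 3.47 CPM in positive libraries, against 9.44, 22.8 and 4.48 CPM in negative libraries. The groups did not overlap, and negative 2 was the highest and negative 3 the closest to the positive libraries. Positive libraries averaged 2.81 ± 0.629 CPM, and negative ones 12.2 ± 9.46 CPM (SD, n = 3 each). The log2 fold change was -2.12 ± 0.59 (SE), which did not pass by edgeR (adjusted p = 0.276).

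Smoc1 had 0.484, 0.887 and 1.01 CPM in positive libraries, against 4.34, 14.0 and 2.42 CPM in negative libraries. Again the groups did not overlap, and the order of the 3 negative libraries was that of Sparcl1. Positive libraries averaged 0.793 ± 0.274 CPM, and negative ones 6.93 ± 6.23 CPM (SD, n = 3 each). On the log2 scale the difference was -3.12 ± 0.73 (SE, edgeR adjusted p = 0.276).

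Spock2 was lower still, with 0.846, 0.463 and 0.373 CPM in positive libraries, against 3.47, 5.81 and 1.13 CPM in negative libraries. These rest on 10 to 21 counts per positive library and 29 to 142 per negative one. Its log2 fold change was -2.62 ± 0.67 (SE, edgeR adjusted p = 0.276). It lies under the 5 CPM level set for giving a fold and was added after its values were seen. Smoc2 had 0.846, 0.887 and 0.410 CPM in positive libraries, against 1.06, 3.48 and 0.507 CPM in negative libraries, and the groups overlapped (-1.23 ± 0.75, edgeR adjusted p = 0.488).

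**Figure D4:**
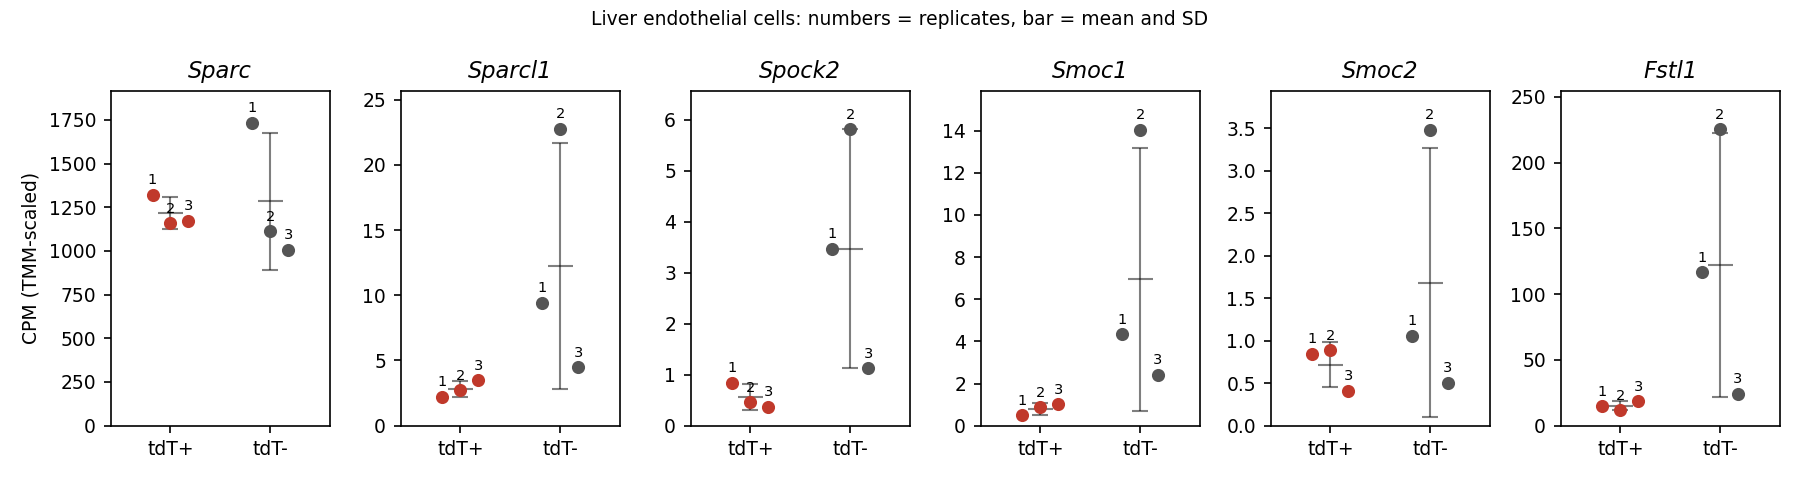
TMM-scaled CPM of the 5 detected members and of Fstl1 in tdTomato-positive (tdT+) and tdTomato-negative (tdT-) liver endothelial libraries, numbered by replicate, with mean and SD as bars and an axis from 0 in each panel. Negative 2 is the highest library for every gene but Sparc, and negative 3 is the lowest of the negative libraries for all 6 genes.

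The call on Sparcl1, Spock2 and Smoc1 depended on the tool and on negative 3. EdgeR on all 6 libraries called 0 of 5 members and 0% of 13115 genes, with 3 members and 14.3% of all genes at an unadjusted p under 0.05. DESeq2 called all 3 genes lower, with adjusted p of 0.00612 for Sparcl1, 0.00685 for Spock2 and 6.46e-04 for Smoc1, and it called 4.47% of all genes lower. Limma's voom with sample quality weights also called the 3 lower (adjusted p of 0.0276, 0.0104 and 0.0258), as it did 10.1% of all genes. Without negative 3, edgeR called the same 3 lower, at -2.53, -3.06 and -3.53 for Sparcl1, Spock2 and Smoc1 (adjusted p of 0.00589, 0.00172 and 0.00553), and 16.1% of all genes. Without negative 2 the 3 differences were -1.32, -2.05 and -2.10, and edgeR called none of them (adjusted p = 0.522 for each). Without overlap and lower in positive were 3 of 5 members, and 9.91% of all genes.

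Sums of several marker lists of vessel type and of other cells also differed between the groups. On average, sinusoidal sums were lower in negative libraries, where these members were higher, and arterial and venous sums were higher there. Sinusoidal endothelial markers (10 genes) summed to 20729, 19692 and 19266 CPM in positive libraries, against 10244, 7998 and 17421 CPM in negative libraries. Arterial markers (9 genes) summed to 1068, 974 and 969 CPM in positive libraries, against 2006, 1904 and 1059 CPM in negative libraries. Venous markers (6 genes) summed to 2028, 1858 and 1984 CPM in positive libraries, against 2770, 3126 and 2048 CPM in negative libraries. By the sum of each list, negative 3 was the negative library nearest the positive ones. The venous genes did not all move alike. Vwf had 69.9 to 122 CPM in positive libraries, against 415, 950 and 217 CPM in negative ones. Ephb4 had 732 to 778 CPM in positive libraries, against 547, 621 and 796 CPM in negative ones. Nor did the sinusoidal genes all follow their sum. Gata4 had 613 to 637 CPM in positive libraries, against 603, 620 and 753 CPM in negative ones. Lyve1, which is in the venous list too, had 515 to 703 CPM in positive libraries, against 816, 395 and 420 CPM in negative ones.

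Fibroblast markers (10 genes) summed to 80.8, 44.5 and 38.3 CPM in positive libraries, against 122, 298 and 52.8 CPM in negative libraries. Cholangiocyte markers (5 genes) summed to 0.806, 1.58 and 2.42 CPM in positive libraries, against 4.45, 17.4 and 4.64 CPM in negative libraries. Most of the negative sums was Spp1, at 3.77, 14.5 and 3.55 CPM, which is also among the other matricellular genes. Epcam, Krt7, Krt19 and Sox9 each stayed below 1.52 CPM in every library. All genes of the sinusoidal, arterial, venous, fibroblast and cholangiocyte lists were in the table and none was at 0 in every library. Among other lists, endocardial markers (6 genes) summed to 1035 to 1170 CPM in positive libraries, against 2216, 2508 and 1053 CPM in negative libraries. Plvap was most of each sum, at 975 to 1106 CPM in positive libraries, against 2101, 2398 and 972 CPM in negative ones. Pericyte and smooth muscle markers (11 genes) summed to 44.7 to 61.4 CPM in positive libraries, against 171, 117 and 40.6 CPM in negative ones. Hepatic stellate cell markers (10 genes) overlapped, with sums of 417, 322 and 322 CPM in positive libraries, against 325, 578 and 362 CPM in negative ones. Hepatocyte markers (8 genes) summed to 270 to 377 CPM in positive libraries, against 746, 638 and 527 CPM in negative ones. Most of the sum of negative 3 was Trf, at 356 CPM, against 111 to 174 CPM in positive libraries. Its Alb, at 112 CPM, lay within the 110 to 145 CPM of positive libraries. The summed red cell and platelet markers (7 genes), mostly globins, ran the other way. They had 2421 to 3833 CPM in positive libraries, against 164, 273 and 1848 CPM in negative ones. The platelet genes in that list did not follow the sum. Pf4 had 14.6, 16.8 and 14.1 CPM in positive libraries, against 27.4, 64.1 and 23.3 CPM in negative ones. Ppbp and Itga2b were also higher in every negative library than in any positive one. Negative 2, the library with the most Sparcl1, Spock2, Smoc1 and Smoc2, also had the highest fibroblast and cholangiocyte sums, the latter mostly Spp1. The part of these cell types and of the immediate early genes in the results was not tested.

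**Figure D5:**
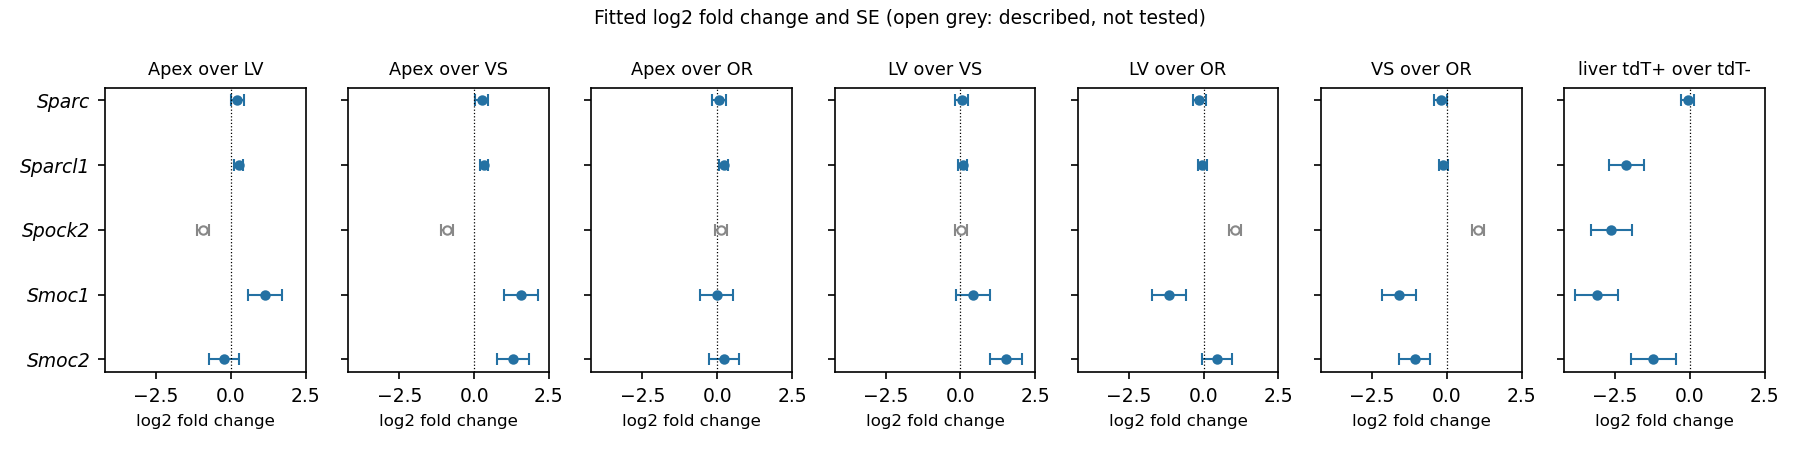
Fitted log2 fold change (point) and SE (bar) of the 5 detected members in the 6 heart pairs and in the liver, each as the first group over the second. Open grey points mark Spock2 in the heart, given without a test; the largest differences are those of Smoc1, Spock2 and Sparcl1 in the liver.

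Fstl1, a secreted glycoprotein with the follistatin-like and calcium-binding domains of the family, was followed as a relative. It had 15.0, 11.6 and 18.8 CPM in positive liver libraries, against 117, 225 and 24.4 CPM in negative libraries, with no overlap. The log2 fold change was -3.01 ± 0.81 (SE, edgeR adjusted p = 0.276), DESeq2 gave an adjusted p of 0.0106, and edgeR without negative 3 gave -3.51 (adjusted p = 0.00421). In the heart, Apex averaged 131 ± 5.35 CPM of Fstl1, LV 139 ± 22.8 CPM, VS 96.0 ± 26.3 CPM and OR 111 ± 11.4 CPM (SD, n = 3 each). No pair passed there by edgeR with all libraries kept. VS libraries had 122, 69.6 and 96.1 CPM, so leaving out VS 1 removed the highest of them. Fstl1 was then higher by edgeR in Apex than in VS (0.66, adjusted p = 0.0127), where 11.7% of all genes were called. It was also higher in LV than in VS (0.74, edgeR adjusted p = 0.0212), where 4.45% were called.

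Genes that act beside the family gave 0 edgeR calls in every list and comparison of both tissues when all libraries were kept. At an unadjusted p under 0.05, edgeR had 32 of the 77 tested in the liver, where 14.3% of all genes were so. Of 82 in the heart, it had 15 in Apex against LV, beside 5.38% of all genes. Counts were 10 in Apex against VS (7.47%) and 8 in Apex against OR (12.1%). They were 14 in LV against VS (2.91%), 15 in LV against OR (11.5%) and 10 in VS against OR (7.03%). In the liver lists, the shares of all genes to set beside a count are 4.47% called lower by DESeq2, and 16.1% called lower and 15.4% higher by edgeR without negative 3. The 8 collagens that SPARC binds had a median log2 fold change of -2.30 in the liver, beside 0.00 over all genes tested, and 6 of 8 were below 0. DESeq2 called 4 of 8 lower (Col1a1, Col1a2, Col3a1 and Col8a1), and edgeR without negative 3 called 6 lower. Col1a1, Col1a2 and Col3a1 are in the fibroblast list too, and the part of fibroblast RNA was not tested. Col1a1 had 0.149 to 1.45 CPM in positive libraries, against 1.95 to 9.42 CPM in negative ones. Col1a2 had 0.261 to 1.05 CPM, against 1.17 to 5.53 CPM, and Col3a1 1.64 to 3.26 CPM, against 3.04 to 29.3 CPM. The basement membrane chains Col4a1 and Col4a2 were the most abundant, at 689 ± 26.6 and 396 ± 25.6 CPM in positive libraries, against 680 ± 299 and 371 ± 145 CPM in negative ones (SD, n = 3 each). Col8a1, a short-chain collagen of vessel walls, averaged 4.49 ± 2.07 CPM in positive libraries, against 37.9 ± 31.8 CPM in negative ones (SD, n = 3 each). Its log2 fold change was -3.07 ± 0.95 (SE), with an adjusted p of 0.276 by edgeR and 0.0305 by DESeq2.

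Receptors and uptake genes of SPARC moved less. Their 9 members had a median of -0.02 in the liver, and DESeq2 called 2 lower, the integrin Itga5 and the adhesion molecule Vcam1. Without negative 3, edgeR called 3 of 9 lower and 2 higher. Stab2 and Stab1, the scavenger receptors of sinusoidal endothelium of which stabilin-1 takes up SPARC, had 1500 ± 10.9 and 1277 ± 37.1 CPM in positive libraries, against 820 ± 504 and 991 ± 251 CPM in negative libraries (SD, n = 3 each). Neither passed by edgeR (adjusted p of 0.396 and 0.461). Both were the higher calls without negative 3, at 1.48 and 0.53 on the log2 scale.

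The 16 measured genes of BMP signalling had a median of -0.34, and DESeq2 called 4 lower (Acvrl1, Bmp4, Smad6 and Smad7). Without negative 3, edgeR called 8 lower and 1 higher. The 14 tested metalloproteases and inhibitors, a class that testicans are known to touch, had a median of -1.28, and DESeq2 called 6 lower. Without negative 3, edgeR called 9 lower and 3 higher. Among them the protease Adamts1 had 103 ± 5.68 CPM in positive libraries, against 413 ± 316 CPM in negative ones (SD, n = 3 each). The 11 heparan sulfate proteoglycan cores had a median of -0.38, and DESeq2 called 2 lower, Col18a1 and Sdc1, while edgeR without negative 3 called 3 lower and 1 higher. Sdc1 (syndecan-1) stood at 16.5 ± 3.82 CPM in positive libraries, against 173 ± 143 CPM in negative ones (SD, n = 3 each). The 18 tested of 23 other matricellular genes had a median of -0.84, and DESeq2 called 5 of the 21 it tested lower (Ccn1, Fbln5, Mgp, Spp1 and Thbs1). Without negative 3, edgeR called 11 of 20 of these lower and 2 higher. Genes listed here as DESeq2 calls were named after their values were seen.

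In the heart, collagens bound by SPARC had their largest median in LV against VS, at 0.77 (0.003 over all genes tested), with all 8 above 0. Each LV library had a larger fibroblast sum than each VS library, and Col1a1, Col1a2 and Col3a1 are in that marker list too; the part of fibroblast RNA was not tested. DESeq2 called Col3a1, a fibrillar collagen, higher in LV (1.59, adjusted p = 0.00387). The other matricellular genes had a median of -0.59 in Apex against LV (-0.009 over all genes tested), with 19 of 23 below 0. In LV against OR it was 0.64 (0.004 over all genes tested), with 20 of 23 above 0. These comparisons share the LV libraries. The fibroblast sums given above were also higher on average in LV, and the sums of 4 atrial cardiomyocyte markers were 6.53, 5.66 and 6.89 CPM in Apex libraries, against 49.2, 23.7 and 32.2 CPM in LV libraries. Their part in these medians was not tested. DESeq2 called Ccn5, a growth arrest-linked matricellular protein, lower in Apex (-2.01, adjusted p = 0.0378). It also called the protease Adamts5 higher in Apex than in OR (0.75, adjusted p = 0.0477). These 3 genes are named as the single DESeq2 call of their list, after their values were seen. Receptors, BMP genes, metalloproteases and proteoglycan cores had medians between -0.10 and 0.28 in the 6 pairs.

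Besides Fstl1, leaving out VS 1 brought some of these heart genes past the edgeR threshold. In Apex against VS, where 11.7% of all genes were then called, Fbln5, Itgb1, Bmp4, Adamts5, Mmp14, Timp3 and Col18a1 were higher and Ilk, Acvrl1 and Mmp24 lower in Apex. In Apex against OR (6.25% of all genes), Itgb1, Bmpr2 and Adamts5 were higher and Mgp, Id1 and Id3 lower in Apex. In LV against VS (4.45%), Comp, Adamts5 and Mmp14 were higher and Acvrl1 lower in LV, and in LV against OR (2.72%) Bmpr2 and Adamts5 were higher in LV. These genes are named as the calls of that setting, after their values were seen. With all libraries kept, 82 genes of the lists were tested in each pair. Set against that, the number called in each pair was not far from the share of all genes. Nothing about the lists is read from it.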

How the data were processed

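Per the labels' protocols, poly(A) RNA of endothelial cells was copied from oligo(dT) primers into cDNA, which was amplified by PCR and sequenced with 100 bp paired-end reads. The submitters' processing notes name mm10; aligner, counter and annotation are not given in the sources used here. Per the file headers, the deposited tables hold the authors' TPM, scaled for gene length and depth, and the authors' expected counts, which are not normalized. All 36 columns matched a sample, 0 did not, and the OZ columns were taken as the OR libraries, the only region left by name.

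Expected counts were rounded and tested with edgeR 4.0.16 in R 4.3.3 (TMM scaling, low-count filter by group, robust quasi-likelihood F test, Benjamini-Hochberg adjustment over all genes, threshold 0.05). The heart fit held 12 libraries and the liver fit 6. CPM are TMM-scaled, log2 CPM used a prior count of 2, and no test used TPM. Alternatives were DESeq2 1.42.0, DESeq2 size factors in edgeR, limma 3.58.1 voom with sample quality weights, no filter, a replicate block, each pair of regions alone and omission of each library. Only the main edgeR fit was tried on simulated data, for LV against OR and for the liver comparison.

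Members and gene lists were chosen with earlier results of these data known. All members are named. A member got a fold change where it passed or where groups did not overlap and the higher group averaged at least 5 CPM, and each list gave its 4 most abundant genes at most; the 5 genes with the highest r are named per member, except 1 that is not reported here. P-values measure only the spread between these libraries, which may be technical. Replicate pairs differed beyond sampling noise (chi-square per degree of freedom of at least 10.3), so each library counted once.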

Additional observations from a re-analysis of the deposited data

How the results depend on the processing

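Counts of called members were 0 by edgeR in each heart comparison and in the liver, and stayed 0 with DESeq2 size factors, with no low-count filter, with each pair of heart regions alone and with the replicate block. Voom with sample quality weights gave 1 member in Apex against VS and 1 over the 4 regions. In the liver DESeq2 gave 3, voom gave 3, and leaving out each library in turn gave 0 to 3, the 3 being without negative 3. Leaving out each heart library in turn gave 0 in every heart comparison. Fold changes of members whose groups did not overlap kept their direction under each alternative. With the replicate number as a block, edgeR gave 0 members in each comparison; same-numbered libraries had correlations of their deviations between -0.0572 and 0.235 (heart) and between -0.207 and -0.0103 (liver), so the numbers were not taken to pair libraries. The order of the members by TPM held in the heart without any 1 library, and in the liver 4 to 6 of 6 places held, since Smoc1 and Smoc2 exchange places without any 1 negative library. Depth limits Spock1 and Spock3, with 3 and 0 counts in the heart, and Spock2 in positive liver libraries, with 10 to 21 counts each. Replicates number 3 per group, and the labels give no batch.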
